A study of Mus musculus with 34 samples.

Results

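Expression of 10 genes of the endoplasmic reticulum (ER) folding machinery was examined in the aged mouse brain: Hspa5, Dnajc3, Hsp90b1, Pdia4, Pdia6, Calr, Sdf2l1, Manf, Creld2 and Hyou1. They are 10 of the 23951 genes listed for each library. The genes were chosen by name, around the lower level of Hspa5 in the hippocampus of Hdac1 cKO mice that an earlier look at these data had shown, as genes known to be induced together with Hspa5. The hippocampal levels of control and Hdac1 cKO mice are therefore a description of the values that chose them. Counts of calls between these 2 groups are printed beside those over all genes and support nothing. The question was whether the lower Hspa5 level extended to the genes that share its regulation, and whether it was seen in mice that played no part in the choice. All 10 passed the filter on low values, a mean of at least 0.5 FPKM (fragments per kilobase of transcript, scaled to library size), in every comparison.

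The hippocampus was profiled in 20 mice, in libraries of the 3′ ends of transcripts. Control and Hdac1 cKO mice were labelled as 13 to 14 months old, and 5XFAD and compound mice as 13 months old. The age label thus goes with 5XFAD, and the 2 cannot be told apart in comparisons of mice with and without 5XFAD. All mice carried floxed Hdac1 alleles (Hdac1f/f). The control group (n = 4) had no further allele. The Hdac1 cKO group (n = 5) also carried Nestin-Cre, in which Nestin regulatory sequence drives Cre recombinase in the neural lineage, so that Hdac1 is lost from neurons and astrocytes while microglia keep it. The 5XFAD group (n = 6) carried transgenes with mutations of familial Alzheimer's disease, driven in neurons by Thy1 promoter sequence. The compound group (n = 5) carried Nestin-Cre and 5XFAD. Nuclei that stained for the astrocyte protein GFAP were sorted from cortical tissue, in 3 control mice and 4 Hdac1 cKO mice. 1 further control sample of the nuclei and 6 ChIP samples were not analysed here. FPKM sums were 725060 to 881139 in the hippocampus and 465218 to 525685 in the nuclei. Depth, as far as the steps between low FPKM values show it, ran from 0.753 to 2.35 times that of control mouse 1 in the hippocampus.

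Hdac1 itself was read first as a check of the labels. It measured 6.42, 8.71, 10.7 and 5.91 FPKM in the control hippocampi, 2.36 to 3.03 in Hdac1 cKO, 6.10 to 9.64 in 5XFAD and 1.15 to 2.52 in compound mice, so that no mouse with Nestin-Cre reached the level of one without. Thy1, whose promoter drives the 5XFAD transgenes, was 303 to 388 FPKM without 5XFAD and 1563 to 2357 with it. In the GFAP+ nuclei the Hdac1 values of control (14.5, 9.91 and 22.3 FPKM) and Hdac1 cKO (9.71, 11.5, 5.80 and 8.73 FPKM) overlapped (log2 difference -0.70, SE 0.28, exact permutation p = 0.114, two-sided). The nuclei labelled Hdac1 cKO were thus not set apart by Hdac1. Neuronal Rbfox3 was 15.4 to 16.9 FPKM in the nuclei against 136 to 186 FPKM in the hippocampus. Gfap was 53.9 to 93.5 FPKM in the nuclei. In the hippocampus it was 23.4 to 32.0 FPKM without 5XFAD and 81.3 to 176 FPKM with it. The nuclei libraries cover whole transcripts rather than 3′ ends, so these levels are not on one scale.

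Proteins that enter the ER are folded there by chaperones before they travel to the cell surface or are secreted. Hspa5 encodes BiP, the Hsp70 chaperone of the ER lumen, which binds unfolded chains and holds the stress sensors IRE1, PERK and ATF6 in check. When unfolded proteins accumulate, these sensors start the unfolded protein response, and the factors ATF6 and XBP1 induce ER chaperone genes through the ER stress response element (ERSE) in their promoters. The canonical element is CCAAT, then any 9 bases, then CCACG, in either orientation. NF-Y binds CCAAT, and ATF6 or XBP1 binds CCACG.

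The promoters are shown because the element is a known route by which such genes are induced together. RefSeq promoter windows (GRCm38.p6), of 250 bases before and 50 after the start site, were at hand for 8 of the 10 genes, all but Manf and Hyou1. Each matched the mm9 genome (NCBIM37), the build used for the expression files, exactly once on its chromosome, and mm9 coordinates are given here. The element was found on either strand in 6 of the 8 windows and in 0.119% (39) of all 32851 windows in the table. Because the genes were chosen as known to be induced with Hspa5, this share is a description and nothing is read from it. The elements follow with 5 flanking bases on each side, 5′ to 3′ on the strand of the gene. Capitals mark CCAAT and CCACG, or their complements CGTGG and ATTGG where the element lies on the opposite strand.
Hspa5, chr2:34627540-34627568, plus strand: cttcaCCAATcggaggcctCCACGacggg
Dnajc3, chr14:119337044-119337072, plus strand: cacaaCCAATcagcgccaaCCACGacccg
Hsp90b1, chr10:86168378-86168406, minus strand: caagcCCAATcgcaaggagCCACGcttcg
Hsp90b1, second element, chr10:86168273-86168301, minus strand: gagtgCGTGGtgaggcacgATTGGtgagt
Pdia6, chr12:17273292-17273320, plus strand: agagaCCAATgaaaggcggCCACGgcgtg
Calr, chr8:87370969-87370997, minus strand: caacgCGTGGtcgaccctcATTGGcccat
Creld2, chr15:88649945-88649973, plus strand: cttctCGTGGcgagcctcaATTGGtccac

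Counted from the RefSeq start site, the Hspa5 element lies at -65 to -47, that of Dnajc3 at -105 to -87 and that of Pdia6 at -98 to -80. The Hsp90b1 elements lie at -212 to -194 and -107 to -89, that of Calr at -162 to -144 and that of Creld2 at -126 to -108. The GENCODE annotation of NCBIM37 starts Hspa5 further upstream, so that its element falls within the first annotated exon. The other elements overlap no annotated exon there. The windows of Pdia4 and Sdf2l1 hold no such letters, which says nothing of elements elsewhere. The shorter element ATTGG, 1 base, CCACG was found in none of the 8 windows (0.0365% of all windows). The GC box GGGCGG, a binding sequence of SP factors, was found in 7 of the 8 and in 35.7% of all windows, both strands searched. The 250 bases before the start sites of Dnajc3 and Pdia4 follow as examples of a window with the canonical element, again in capitals, and of one without.
Dnajc3, chr14:119336904-119337153, plus strand: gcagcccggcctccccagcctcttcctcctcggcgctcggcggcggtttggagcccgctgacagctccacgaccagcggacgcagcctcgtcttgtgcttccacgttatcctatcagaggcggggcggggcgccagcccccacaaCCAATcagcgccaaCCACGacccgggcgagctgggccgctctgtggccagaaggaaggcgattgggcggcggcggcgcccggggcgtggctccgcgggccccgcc
Pdia4, chr6:47763512-47763761, minus strand: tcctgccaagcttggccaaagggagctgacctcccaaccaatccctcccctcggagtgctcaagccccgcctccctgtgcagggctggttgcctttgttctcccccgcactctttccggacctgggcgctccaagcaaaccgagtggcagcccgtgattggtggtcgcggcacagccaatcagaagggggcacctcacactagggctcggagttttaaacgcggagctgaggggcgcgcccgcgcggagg

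In the Hdac1 cKO hippocampus 4 of the 10 genes were at 61.5% to 70.0% of the control mean: the ER Hsp70 Hspa5, its co-chaperone Dnajc3, the ER Hsp90 Hsp90b1 and the disulfide isomerase Pdia4. Hyou1 was lower by a smaller margin, and the other 5 had overlapping values. Hspa5 (chr2:34627490-34632051) measured 150, 177, 189 and 182 FPKM in the control mice and 128, 121, 106, 117 and 106 FPKM in the Hdac1 cKO mice. Every Hdac1 cKO mouse was below every control mouse, and the control nearest to them was mouse 1. The means were 175 ± 17.2 FPKM (SD, n = 4) and 116 ± 9.64 FPKM (SD, n = 5) respectively, a log2 difference of -0.59 (SE 0.09). All log2 differences are on the log2(FPKM + 1) scale and come from limma fits across all genes.

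Hsp90b1 encodes GRP94, the Hsp90 of the ER lumen (chr10:86152954-86168254). It measured 147, 182, 161 and 181 FPKM in control and 125, 119, 106, 114 and 123 FPKM in Hdac1 cKO mice (log2 difference -0.51, SE 0.09). Its groups did not overlap, and control mouse 1 was again the lowest control. Dnajc3 encodes p58IPK, a DnaJ protein that works with BiP and also inhibits the kinase PERK (chr14:119337154-119380924). It measured 14.1, 17.0, 16.3 and 15.4 FPKM in control and 10.8, 8.08, 9.89, 12.2 and 10.3 FPKM in Hdac1 cKO mice (log2 difference -0.58, SE 0.12). Pdia4 encodes ERp72, a protein disulfide isomerase (chr6:47746141-47763511). It measured 9.70, 9.71, 8.28 and 10.6 FPKM in control and 5.46, 6.63, 5.86, 6.42 and 5.10 FPKM in Hdac1 cKO mice (log2 difference -0.62, SE 0.12). For Dnajc3 and Pdia4, too, the highest Hdac1 cKO mouse was below the lowest control.

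**Figure D1:**
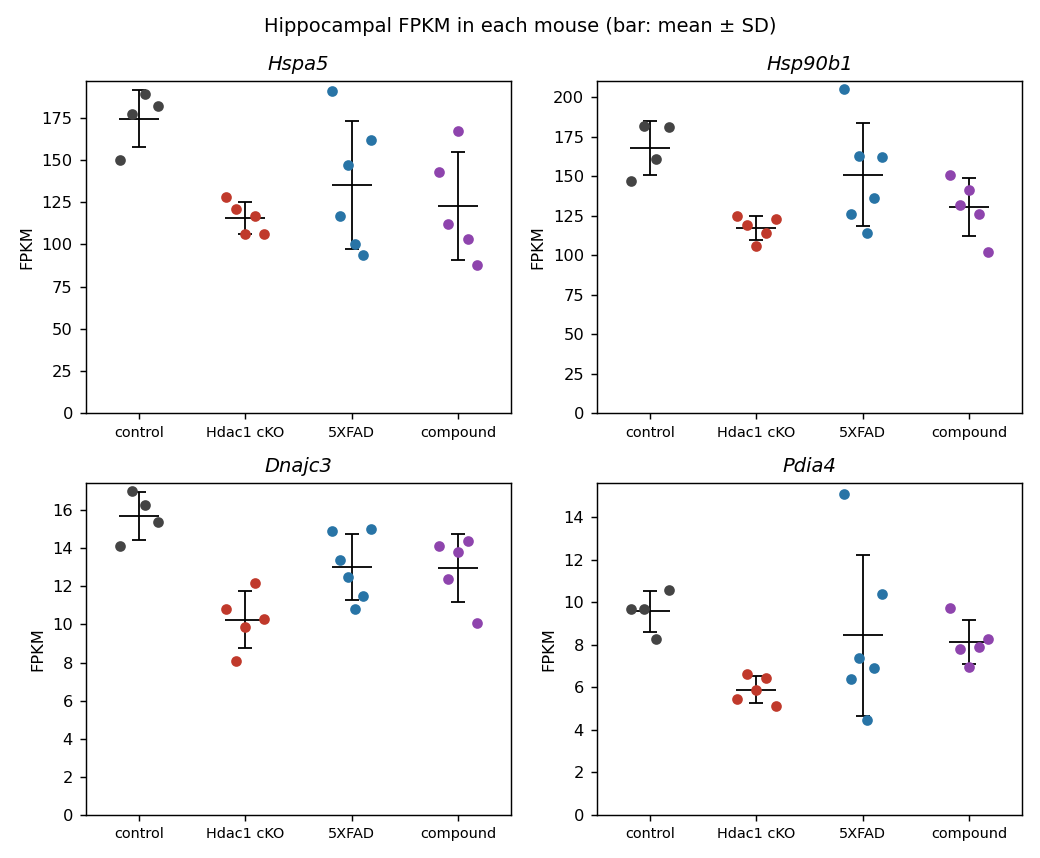
FPKM (y axis, from 0) of Hspa5, Hsp90b1, Dnajc3 and Pdia4 in each hippocampal mouse (points) by group, with the group mean and SD (black bars). The 5 Hdac1 cKO mice sit below the 4 control mice in every panel, while the 5XFAD mice spread over both (Hspa5 from 93.9 to 191 FPKM).

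Hyou1 encodes ORP150 (GRP170), a large Hsp70-related protein that acts as a nucleotide exchange factor for BiP (chr9:44187573-44200452). It measured 4.30 to 4.80 FPKM in control and 3.39 to 4.12 FPKM in Hdac1 cKO mice, with a log2 difference of -0.23 (SE 0.11). The ranges did not overlap, but the 95% interval of the difference, -0.48 to 0.02, included 0. The remaining folding enzymes and lectin chaperones had overlapping values. Pdia6, another protein disulfide isomerase and a regulator of IRE1 (chr12:17273351-17291576), averaged 40.3 ± 3.95 FPKM (SD) over the 4 control mice against 38.6 ± 4.04 FPKM over the 5 Hdac1 cKO mice. Its log2 difference was -0.06, with an interval of -0.28 to 0.16. Calr, the calcium-binding lectin chaperone calreticulin (chr8:87365749-87370833), measured 90.1, 135, 122 and 142 FPKM in control mice and ran from 79.9 to 136 FPKM in Hdac1 cKO mice. Its mice spread widely within both groups (log2 difference -0.21, SE 0.19).

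The small induced factors did not separate the groups either. Sdf2l1, a partner of ER DnaJ proteins (chr16:17130231-17132476), ranged from 12.2 to 21.5 FPKM in control and from 10.6 to 21.5 FPKM in Hdac1 cKO mice. Manf, a small secreted ER stress protein with neurotrophic activity (chr9:106740643-106794310), ranged from 12.7 to 20.8 and from 11.6 to 18.4 FPKM. Creld2, an ER stress-induced protein with disulfide isomerase activity (chr15:88650076-88657111), ranged from 4.76 to 14.9 and from 8.25 to 13.2 FPKM, with a log2 difference of 0.15 (SE 0.26).

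Over all 10 genes the median log2 difference was -0.22, against -0.0007 over the 14265 genes tested. The ranges did not overlap for 5 of the 10, all lower, beside 2.15% of the genes tested in that direction. 2 of the 10, Hspa5 and Pdia4, passed the study's rule for differentially expressed genes (DEGs), a fold change of at least 1.5 and p under 0.05, beside 2.87% of all genes that were lower by that rule. On the log2(FPKM + 1) scale used here the fold threshold fell between Hspa5 (-0.59) and Dnajc3 (-0.58). With the ratio of mean FPKM, by which Dnajc3 was at 65.2% of control, 3 members passed. The count was 0 with the replicate number as a block and without Hdac1 cKO mouse 5. It was 1 with quantile normalization, with libraries scaled to the same median and with the choroid plexus score as a covariate. 2 of the 10, Hspa5 and Hsp90b1, were lower at an adjusted p under 0.05 beside 0.147%. That count was 0 with all 4 groups in one fit, with the replicate number as a block and with the choroid plexus score as a covariate. Over all genes tested, 1 was lower at that threshold in the fit of all 4 groups, and 0 were called with the block or the covariate. The members' count was also 0 without limma's trend and robust options, with no filter on low values, and without any one mouse other than control mouse 1. Lower over all genes were 7 without those options and 8 with no filter. Since this contrast chose the genes, these counts are a description and nothing is read from them.

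**Figure D2:**
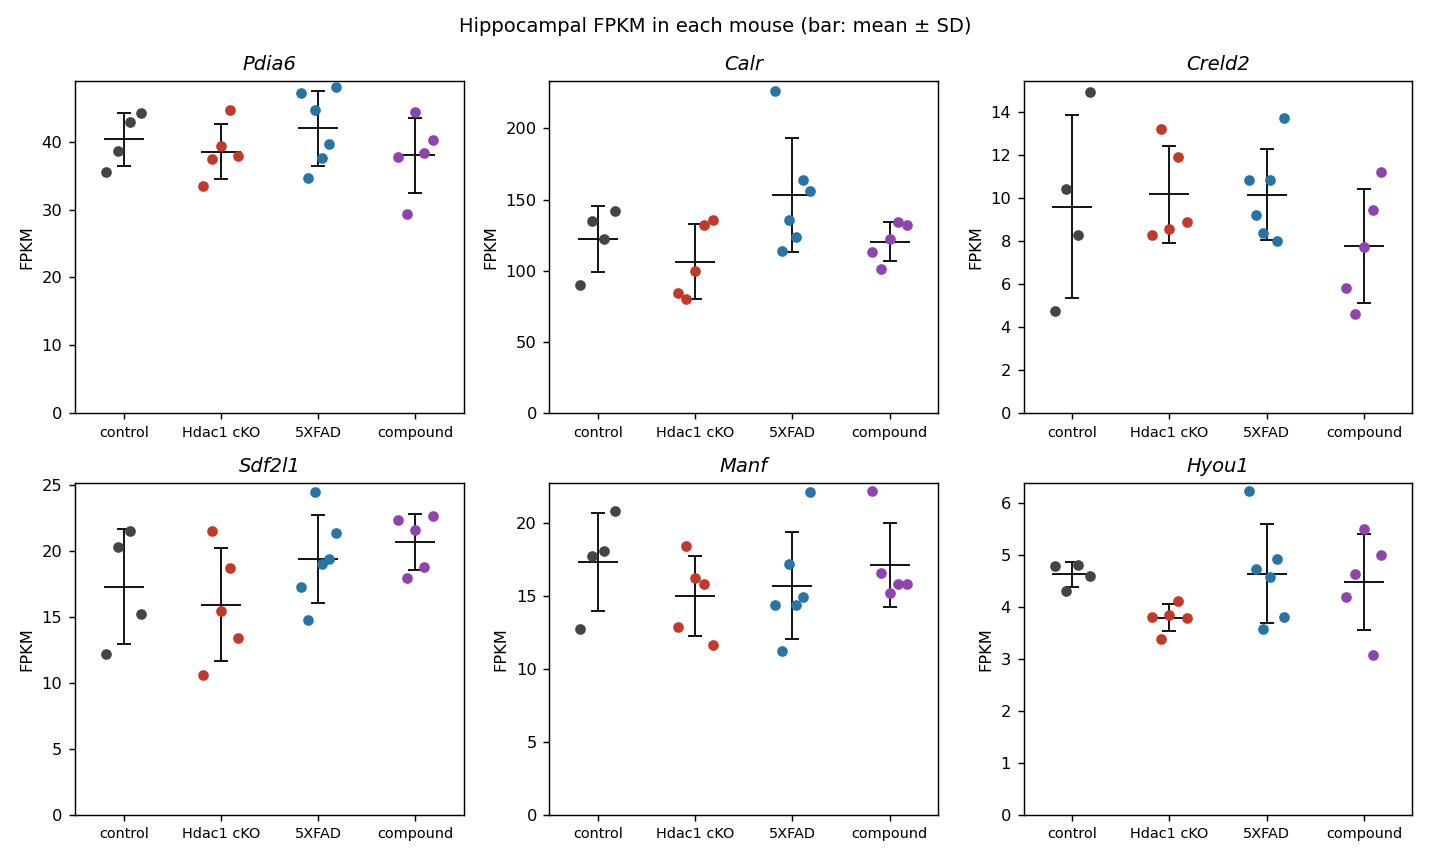
FPKM (y axis, from 0) of Pdia6, Calr, Creld2, Sdf2l1, Manf and Hyou1 in each hippocampal mouse (points) by group, with the group mean and SD (black bars). Control and Hdac1 cKO mice overlap for all but Hyou1, and a single 5XFAD mouse reaches 226 FPKM for Calr.

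Markers of the choroid plexus, a secretory epithelium that borders the hippocampus, moved with these levels. The summed FPKM of 12 choroid plexus markers was 671 to 21500 in control, 105 to 1720 in Hdac1 cKO, 102 to 8380 in 5XFAD and 103 to 14500 in compound mice, and none of the 12 was at 0 in every library. Ttr, the most abundant marker, measured 576, 17485, 20146 and 12903 FPKM in control mice 1 to 4 and 56.5 to 1608 FPKM in Hdac1 cKO mice. Summed ependymal markers were 131 to 307 FPKM in control and 71.4 to 105 FPKM in Hdac1 cKO mice. Summed meningeal markers were 63.8 to 126 and 42.1 to 70.5 FPKM and overlapped. Among the 7 meningeal markers the mean of Igf2 differed most in FPKM (34.1 in control, 7.03 in Hdac1 cKO). Dcn averaged 56.4 and 48.5 FPKM with overlapping values, and Col1a1 was the only one with a higher mean in Hdac1 cKO (0.184 and 0.217 FPKM). Summed neuronal and astrocyte markers overlapped between these 2 groups (neurons 1900 to 2210 and 1960 to 2240 FPKM, astrocytes 1170 to 1300 and 1200 to 1310 FPKM). Single markers did not all follow the sums. Neuronal Rbfox3 was 139 to 156 FPKM in control and 164 to 178 FPKM in Hdac1 cKO mice. The astrocyte marker Aqp4 was 20.86 to 23.96 and 27.07 to 32.18 FPKM respectively. Others, such as neuronal Map2 and astrocyte Gja1, overlapped. Control mouse 1, the control with little Ttr, was the lowest control for every member but Pdia4 and Hyou1. In tissue, fewer cells of a type and less RNA per cell cannot be told apart.

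Among the hippocampal mice, 12 had Ttr of at most 1608 FPKM and the other 8 had at least 3058 FPKM. Of those 12, control mouse 1 had 150 FPKM of Hspa5, the 5 Hdac1 cKO mice had 106 to 128 FPKM and 4 compound mice had 87.6 to 167 FPKM. The 2 5XFAD mice among the 12 had the lowest Hspa5 of their group. With the choroid plexus score, the mean log2(FPKM + 1) of the markers, as a covariate, the log2 difference between Hdac1 cKO and control was -0.41 (SE 0.16) for Hspa5, -0.43 for Dnajc3, -0.30 for Hsp90b1 and -0.75 for Pdia4. In the same fit Calr was at 0.36, Sdf2l1 at 0.30, Pdia6 at 0.09, Manf at 0.05, Creld2 at 0.81 and Hyou1 at -0.28. No member reached an adjusted p under 0.05 in that fit, nor did any other gene tested. The score and the genotype overlap in only a few mice, so their parts in these differences cannot be told apart here.

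**Figure D3:**
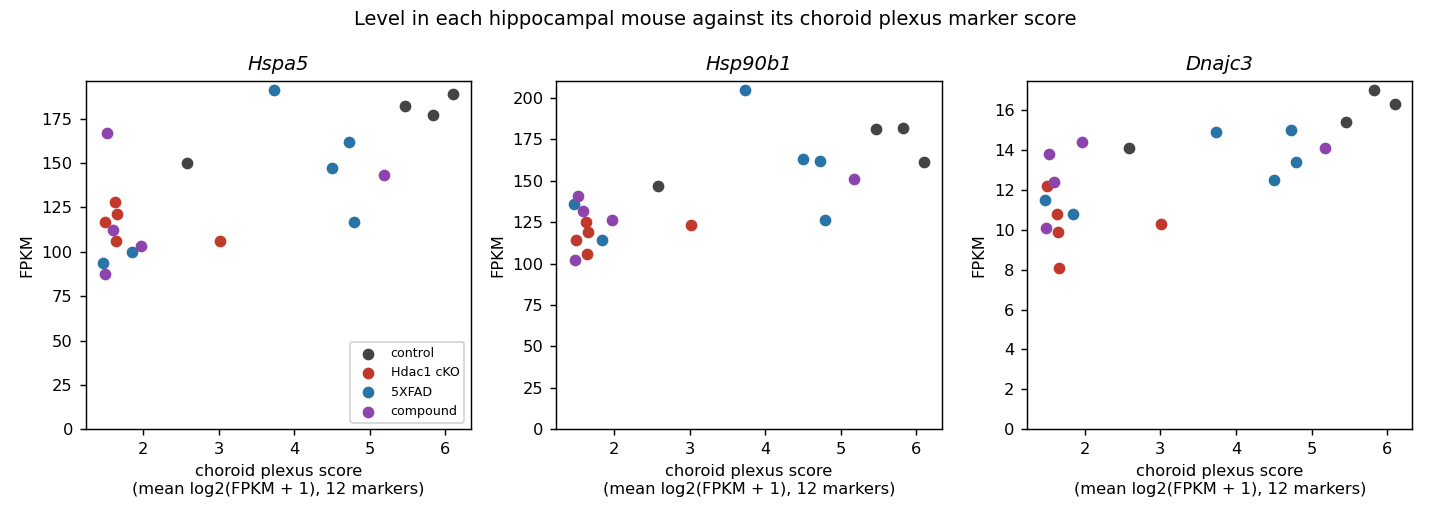
FPKM (y axis, from 0) of Hspa5, Hsp90b1 and Dnajc3 in each of the 20 hippocampal mice against the mouse's choroid plexus score (x axis, mean log2(FPKM + 1) of 12 markers), coloured by group. Control mice with high scores hold high levels, the 5 Hdac1 cKO mice have scores of at most 3.01, and both 5XFAD mice with low scores have the lowest Hspa5 of their group.

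The 5XFAD and compound mice took no part in the choice of the genes. The comparison between them tests loss of Hdac1 in other animals, with 5XFAD mice as the reference. The study reported reduced HDAC1 activity in the aged hippocampus of this reference group. It proposed that genes sensitive to oxidative DNA lesions were already repressed there, potentially through this reduction. The comparison therefore does not repeat the one without 5XFAD. The part of that activity in the members' levels was not tested. None of the 10 genes passed a test between compound and 5XFAD mice. Hspa5 measured a lowest value of 93.9, a median of 132 and a highest of 191 FPKM in 5XFAD mice, and 143, 112, 167, 103 and 87.6 FPKM in compound mice. The groups overlapped over most of their range, with a log2 difference of -0.13 (SE 0.20, p = 0.527, adjusted p = 0.897, limma, and exact permutation p = 0.576, two-sided). Its 95% interval was -0.57 to 0.31. With single mice left out, the log2 difference ran from -0.25 to -0.02.

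Dnajc3 averaged 13.0 ± 1.73 FPKM (SD) over the 6 5XFAD mice and 13.0 ± 1.75 FPKM over the 5 compound mice. Its log2 difference was -0.01, with an interval of -0.26 to 0.25. Pdia4 was at 8.44 ± 3.78 and 8.14 ± 1.02 FPKM, with an interval of -0.44 to 0.50. Its 5XFAD values ran from 4.47 to 15.1 FPKM, and the highest, mouse 1, was also the highest 5XFAD mouse for Hspa5, Hsp90b1, Calr and Hyou1. Hsp90b1 was at 151 ± 32.9 and 130 ± 18.6 FPKM, with a log2 difference of -0.20 and an interval of -0.50 to 0.11. The smallest p-values belonged to Calr (log2 difference -0.31, exact permutation p = 0.0823, limma adjusted p = 0.74) and Creld2 (log2 difference -0.38, exact permutation p = 0.123, limma adjusted p = 0.742).

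By the DEG rule 0 of 10 members were called, beside 1.28% of the 14326 genes tested. At an adjusted p under 0.05 (limma) 0 of 10 were called beside 0.00698%, which is a single gene. At an unadjusted p under 0.05 the count was 0 of 10 beside 6.61%, and 0 of 10 had ranges that did not overlap beside 0.607%. The members' median log2 difference was -0.09, against -0.0005 over all genes. It ran from -0.15 to 0.0 when single mice were left out. Choroid plexus markers moved with these groups too. Their sums ran from 102 to 8380 FPKM in 5XFAD and from 103 to 14500 FPKM in compound mice, but the medians were 4610 and 211 FPKM, and 4 of 6 5XFAD mice against 1 of 5 compound mice were among the 8 mice with high Ttr. With the choroid plexus score as a covariate the log2 difference was 0.03 (SE 0.19) for Hspa5, 0.08 (SE 0.12) for Dnajc3, -0.10 (SE 0.15) for Hsp90b1 and 0.17 (SE 0.22) for Pdia4, and again no member was called. Other marker scores also differed between these groups. The endothelial score was 1.99 to 2.30 in 5XFAD and 1.81 to 1.97 in compound mice, and the astrocyte score 5.94 to 6.09 and 6.07 to 6.35. Compound mouse 4 had the highest microglial (6.05) and oligodendrocyte (7.01) scores. The part of these in the members' levels was not tested.

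The effect of Hdac1 loss with 5XFAD minus that without was computed in one fit of all 4 groups. It contains the contrast that chose the genes and is given without a test. The difference was 0.46 (95% interval -0.07 to 0.98) for Hspa5, 0.57 (0.22 to 0.92) for Dnajc3, 0.65 (0.08 to 1.22) for Pdia4 and 0.31 (-0.07 to 0.70) for Hsp90b1. For the other 6 genes it lay between -0.53 (Creld2) and 0.33 (Manf). Since the genes were chosen on the difference without 5XFAD, nothing is read from these values.

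**Figure D4:**
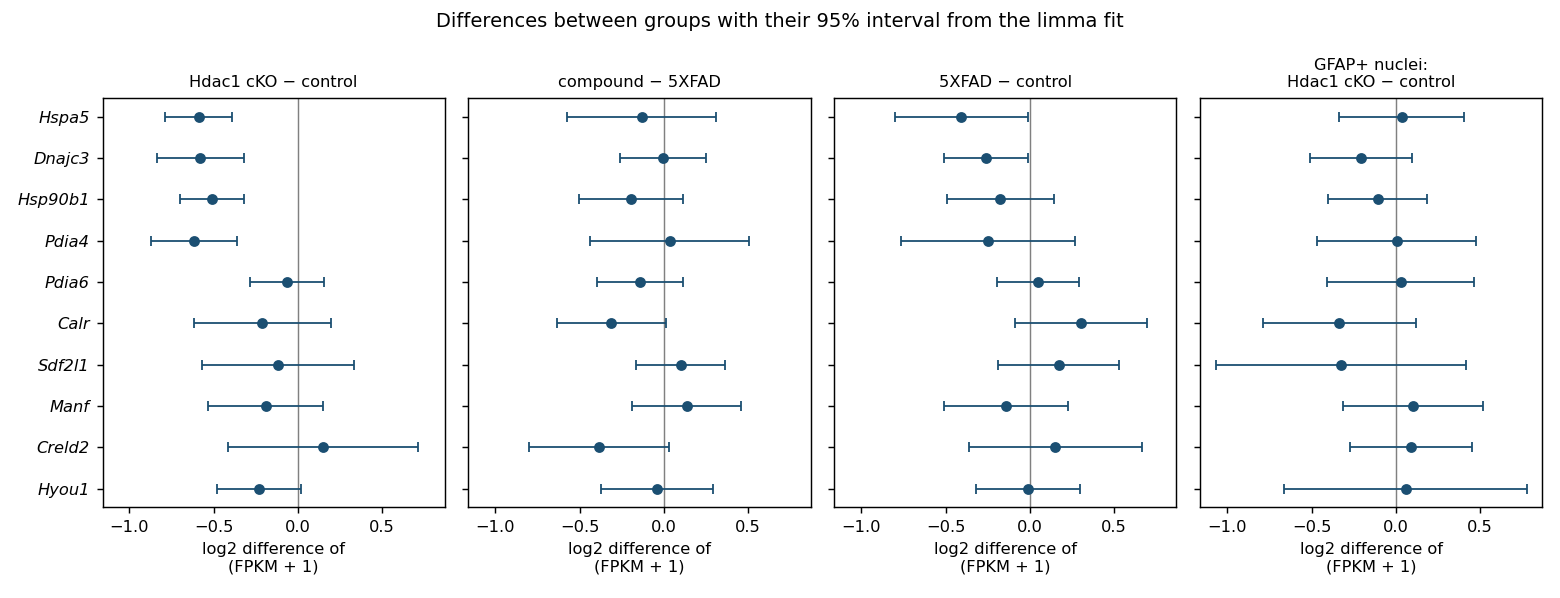
Log2 difference of (FPKM + 1) with its 95% interval (x axis) for the 10 genes (y axis) in 4 comparisons: Hdac1 cKO minus control hippocampus, compound minus 5XFAD hippocampus, 5XFAD minus control hippocampus, and Hdac1 cKO minus control GFAP+ nuclei. Hspa5, Dnajc3, Hsp90b1 and Pdia4 lie left of 0 in the first panel, from -0.62 to -0.51.

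The mean levels in 5XFAD mice lay between those of control and Hdac1 cKO mice for Hspa5, Dnajc3, Hsp90b1 and Pdia4, while single 5XFAD mice ran past both groups for Hspa5 (93.9 to 191 FPKM) and Pdia4 (4.47 to 15.1 FPKM). This comparison shares the control mice with the contrast that chose the genes, so its values are given side by side and its counts are read as a description. Hspa5 was 135 ± 38.0 FPKM (SD, n = 6) in 5XFAD, 77.5% of the control mean, with a log2 difference of -0.41 (SE 0.18). Mouse 1, at 191 FPKM, was above every control, and mice 2 to 5 were below all of them. Dnajc3 was at 82.8% of control (log2 difference -0.26, SE 0.12), Hsp90b1 at 89.9% (-0.17, SE 0.15) and Pdia4 at 88.1% (-0.25, SE 0.24). When single mice were left out, the difference ran from -0.27 to -0.1 for Hsp90b1 and from -0.42 to -0.11 for Pdia4. Calr was at 125% (0.31, SE 0.18). With the choroid plexus score as a covariate the log2 difference was -0.19 (SE 0.17) for Hspa5, -0.14 for Dnajc3, -0.06 for Hsp90b1 and -0.13 for Pdia4. None of the 10 passed the DEG rule (2.95% of 14402 genes did) or an adjusted p under 0.05 (0.708%). At an unadjusted p under 0.05 there were 2 of 10 beside 10.7% of all genes, and 0 of 10 had ranges without overlap beside 2.9%. The 2 5XFAD mice with the lowest choroid plexus marker sums, mice 4 and 5, had the lowest values of Hspa5 and Dnajc3. This did not hold for Hsp90b1 and Pdia4, where mouse 2, with the highest Ttr of the group (7892 FPKM), was at 126 and 6.41 FPKM and below mouse 5 at 136 and 6.90 FPKM. Mouse 1, the highest for Hspa5, had a Ttr of 3058 FPKM. Microglial and astrocyte markers also moved with 5XFAD. The summed FPKM of 10 microglial markers was 236 to 317 in control, 259 to 285 in Hdac1 cKO, 543 to 704 in 5XFAD and 573 to 1190 in compound mice, and that of 10 astrocyte markers was 1170 to 1310 in the groups without 5XFAD, 1280 to 1520 in 5XFAD and 1450 to 1610 in compound mice. The astrocyte score, the mean log2(FPKM + 1) of these markers, was at most 5.81 without 5XFAD and at least 5.94 with it, and Gfap was 23.4 to 32.0 FPKM without and 81.3 to 176 FPKM with 5XFAD. Their part in the members' levels was not tested.

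In compound mice against the same controls, Hspa5 was at 70.2% (log2 difference -0.54, SE 0.17) and Hsp90b1 at 77.6% (-0.37, SE 0.11). Dnajc3 was at 82.5% (-0.27, SE 0.12) and Pdia4 at 84.9% (-0.21, SE 0.13). The other 6 had differences from -0.23 (Creld2) to 0.27 (Sdf2l1). With the choroid plexus score as a covariate the log2 difference was -0.31 (SE 0.21) for Hspa5, -0.17 for Hsp90b1, -0.12 for Dnajc3 and -0.11 for Pdia4, and it was 0.36 for Manf and 0.55 for Sdf2l1. No member passed the DEG rule (4.24% of 14348 genes did), and none an adjusted p under 0.05 (0.662%). At an unadjusted p under 0.05 there were again 2 of 10 beside 10.5%. None had ranges without overlap, beside 4.27%. The control mice took part in the contrast that chose the genes, so these counts too are read as a description. Compound mouse 3 held 167 FPKM of Hspa5 with a low Ttr of 148 FPKM, whereas mouse 1, the only compound mouse with high Ttr (13910 FPKM), held 143 FPKM. Compound mice 2, 4 and 5, also low in Ttr, held 112, 103 and 87.6 FPKM. Mouse 1 was the highest compound mouse for Hsp90b1 (151 FPKM), Pdia4 (9.75 FPKM) and Manf (22.2 FPKM), and for no other member.

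Compound mice were also set beside Hdac1 cKO mice, which gives the 5XFAD effect in mice with Nestin-Cre. It shares the Hdac1 cKO mice with the choosing contrast. Pdia4 measured 9.75, 7.81, 6.97, 7.88 and 8.28 FPKM in compound mice, all above the highest Hdac1 cKO mouse at 6.63 FPKM (log2 difference 0.40, SE 0.12). Dnajc3 was at 127% of the Hdac1 cKO mean (0.31, SE 0.13) and Sdf2l1 at 130% (0.39, SE 0.16). Hspa5 differed by 0.05 with an interval of -0.27 to 0.37. Microglial marker sums were 573 to 1190 FPKM in compound and 259 to 285 FPKM in Hdac1 cKO mice. Astrocyte marker sums were 1450 to 1610 and 1200 to 1310 FPKM respectively. Their part in these differences was not tested. No member passed the DEG rule (3.55% of 14195 genes) or an adjusted p under 0.05 (1.49%). At an unadjusted p under 0.05 there were 3 of 10 beside 10.3%, and Pdia4 alone had ranges without overlap beside 3.34%. Since low values in the Hdac1 cKO mice chose the genes, these counts are a description and nothing is read from them.

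In the GFAP+ nuclei, where the libraries cover whole transcripts of nuclear RNA, no member passed a test between Hdac1 cKO and control. The labels do not say whether any of these mice also gave a hippocampal library. Hspa5 measured 41.6, 59.0 and 48.2 FPKM in control and 54.4, 41.2, 52.6 and 54.3 FPKM in Hdac1 cKO nuclei. The groups overlapped, with means of 49.6 ± 8.79 FPKM (SD, n = 3) and 50.6 ± 6.33 FPKM (SD, n = 4) and a log2 difference of 0.03 (SE 0.17, adjusted p = 0.997, limma). The 95% interval was -0.33 to 0.40. Dnajc3 measured 29.7, 30.4 and 34.5 FPKM in control and 27.9, 26.1, 25.5 and 28.9 FPKM in Hdac1 cKO nuclei. Its groups did not overlap and were close (log2 difference -0.21, SE 0.14, limma p = 0.156, adjusted p = 0.984, and exact permutation p = 0.0571, two-sided, where 35 permutations are possible).

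Hsp90b1 was at 92.6% of control in the nuclei (interval of the log2 difference -0.40 to 0.19), Pdia4 at 101% (-0.46 to 0.47) and Pdia6 at 101% (-0.41 to 0.47). Calr was at 78.8% (-0.79 to 0.12) and Sdf2l1 at 78.0% (-1.07 to 0.42), and the intervals of both were wide. Manf, Creld2 and Hyou1 were at 105% to 108% of control. By the DEG rule 0 of 10 were called beside 2.58% of 15070 genes, and at an adjusted p under 0.05 (limma) 0 of 10 beside 0.0133%. At an unadjusted p under 0.05 the count was 0 of 10 beside 4.7%, and Dnajc3 was the 1 of 10 with ranges that did not overlap, beside 5.72%. The median log2 difference was 0.02, against -0.0065 over all genes. Choroid plexus marker sums were 54.8 to 223 FPKM (median 81.9) in control and 162 to 350 FPKM (median 257) in Hdac1 cKO nuclei. The median was thus higher in Hdac1 cKO, the reverse of the hippocampus. The part of these markers in the members' levels was not tested.

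Whether the members vary together was asked within the groups. Each group's mean was subtracted from the log2 values of the 20 hippocampal mice, which removes the group difference that chose the genes. Hsp90b1 followed Hspa5 most closely (Pearson r = 0.853, permutation p = 0.00024, Spearman rho = 0.863, permutation p = 0.00033). Of the 14388 genes compared with Hspa5, Hsp90b1 among them, none had a higher r, and the middle 90% of genes lay between -0.492 and 0.478. Adjusted over all of these genes, the p for Hsp90b1 was 0.216. Without the 2 mice with the most extreme Hspa5, 5XFAD mice 1 and 5, r was 0.836, and Ccpg1, which is no member, then had the higher r of 0.846.

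Dnajc3 had r = 0.631 (permutation p = 0.00824, rho = 0.579, permutation p = 0.0236), and 0.931% of the genes had an r as high. Pdia4 had r = 0.584 (permutation p = 0.0475, rho = 0.361, permutation p = 0.201), which dropped to 0.405 without those 2 mice. Pdia6 had r = 0.491 (permutation p = 0.0708, rho = 0.523, permutation p = 0.0398). Manf followed at 0.369, and Calr, Sdf2l1, Hyou1 and Creld2 were between 0.101 and 0.235, within the bulk of all genes. Over all genes the adjusted p of these 8 was 0.411 or higher. With the choroid plexus score subtracted as well, r was 0.80 for Hsp90b1, 0.50 for Dnajc3 and 0.52 for Pdia4.

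**Figure D5:**
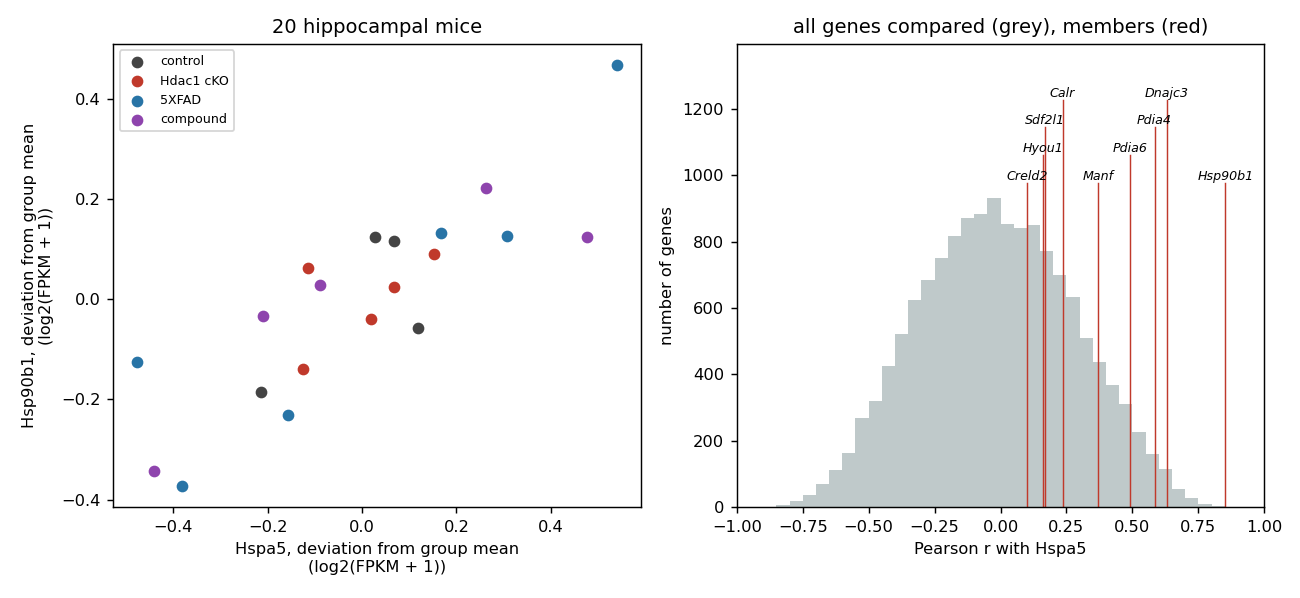
Left, deviation of Hsp90b1 against that of Hspa5 from the group means (log2(FPKM + 1)) in the 20 hippocampal mice, coloured by group. Right, number of genes (y axis) by Pearson r with Hspa5 (x axis, bins of 0.05), with red lines at the other 9 members. Hsp90b1, at 0.853, stands to the right of the other genes.

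Outside the 10, the genes with the highest r with Hspa5 were Cep290 (0.836), Zfp873 (0.828), Ccpg1 (0.808), Ipo8 (0.798) and Pdia3 (0.796). Ccpg1 encodes an ER-resident receptor for autophagy of the ER, and Pdia3 is the disulfide isomerase ERp57, which works with calreticulin. Cep290 is a protein of the cilium base, and Ipo8 a nuclear import receptor.

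The lists of related genes are read beside all genes tested, of which 3.36% passed the DEG rule in the hippocampus of Hdac1 cKO against control mice and 11.7% had an unadjusted p under 0.05. Of 24 other ER folding factors, 0 passed the DEG rule in that comparison (median log2 difference -0.11, 4 at an unadjusted p under 0.05). The 16 tested sensors and transcription factors of the unfolded protein response had a median of 0.02, with none called and 1 at an unadjusted p under 0.05. The 12 tested targets of PERK and ATF4 had a median of -0.03, the 20 ER-associated degradation genes -0.04 and the 29 ER translocation genes -0.08, again with none called by the DEG rule (1, 1 and 4 at an unadjusted p under 0.05). Of 24 cytosolic and mitochondrial chaperones the small heat shock protein Hspb1 alone was called, with a mean of 31.6 ± 10.5 FPKM (SD) over the 4 controls against 14.3 ± 1.86 FPKM over the 5 Hdac1 cKO mice (log2 difference -1.04, limma adjusted p = 0.0748).

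In compound against 5XFAD mice none of the genes of these 6 lists passed the DEG rule, with medians from -0.04 to 0.12. Atf3, a stress-induced transcription factor downstream of ATF4, was the 1 gene called in 5XFAD against control mice, with means of 1.57 ± 0.903 FPKM (SD) over the 6 and 0.292 ± 0.282 FPKM over the 4 mice. Hspb6, a small heat shock protein, was the 1 called in compound against Hdac1 cKO mice (log2 difference 1.17). In compound against control mice none was called. In the nuclei the DEG rule called Pdia5 (-0.77) and the signal peptidase subunit Spcs2 (-0.59), both lower in Hdac1 cKO, and Hspb8 (0.67), which was higher. None of these genes reached an adjusted p under 0.05 in any comparison (limma).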

How the data were processed

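The deposited files hold 1 FPKM value per gene for 20 hippocampal and 7 GFAP+ nuclei libraries. To make these FPKM values, the authors aligned reads to mm9 with Tophat2 and quantified UCSC genes with Cufflinks 2.0.0, as the study's methods and the submitters' processing notes give it. The files hold no fragment counts, so no count model, counting interval or detection limit was computed. In 3′ libraries, division by transcript length shifts each gene by a constant, so levels are compared between mice and not between genes.

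FPKM values were used as deposited. limma 3.58.1 (trend and robust options, R 4.3.3) was fitted to log2(FPKM + 1) of the mice compared, over genes that averaged 0.5 FPKM or more, with Benjamini-Hochberg adjustment over all genes tested. The pseudocount of 1 understates the change of low genes. DEGs followed the study's rule, a fold change of at least 1.5 and p under 0.05. The fit was tested on simulated data. For single genes, the difference between group means of log2(FPKM + 1) was also tested by exact permutation over mice. Correlations used 100000 permutations within groups and adjustment over all genes. Each mouse counted as 1 replicate. Nothing more is known of separate cages or litters, so p-values measure the spread between these mice.

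The members, gene lists and alternatives were chosen with earlier results of these data known. Named were all members, the DEGs of the other lists (at most 3 per list and comparison), the 5 genes most like Hspa5, Hdac1 and Thy1. Other pseudocounts, filters, scalings, fits, a choroid plexus covariate, a replicate block and the omission of each mouse were tried. Promoters are RefSeq windows, located in mm9 by exact match.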

Additional observations from a re-analysis of the deposited data

Results flagged for a closer look

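Of 50 sets of values (10 members in the 5 groups of 4 to 6 mice), 2 held a value that stood apart from its group by Dixon's test, which chance gives in about 1 of 20. Hspa5 was at 41.2 FPKM in Hdac1 cKO nuclei of mouse 2, below the other 3 at 52.6 to 54.4 FPKM. Without that mouse the log2 difference of Hspa5 in the nuclei was 0.13. Manf was at 22.2 FPKM in compound mouse 1, above the other 4 at 15.2 to 16.6 FPKM. That mouse was also the compound mouse with high Ttr (13910 FPKM). The part of the choroid plexus RNA in this value was not tested.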

How the results depend on the processing

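In the hippocampus of Hdac1 cKO against control mice, the number of members past the DEG rule was 2, became 3 with a pseudocount of 0.1 or with folds computed directly between group means of FPKM, and became 1 with quantile normalization, with libraries scaled to the same median and with the choroid plexus covariate. It became 0 with the replicate block. The number at an adjusted p under 0.05 was 2 and became 1 with a pseudocount of 0.1, quantile normalization or median scaling. It became 0 with no filter on low values, without the trend and robust options, with all 4 groups in one fit, with the replicate block and with the choroid plexus covariate. Over all genes tested, 0 were called with the block or the covariate, and 1 with all 4 groups in one fit. Leaving out each mouse gave 0 to 3 members by the DEG rule (0 without Hdac1 cKO mouse 5, 1 without Hdac1 cKO mouse 3 or control mouse 2, 3 or 4) and 0 to 4 at an adjusted p under 0.05 (4 without control mouse 1, 0 without any one of the others). With the choroid plexus covariate the log2 difference of Calr turned from -0.21 to 0.36, that of Manf from -0.19 to 0.05, that of Sdf2l1 from -0.12 to 0.30 and that of Pdia6 from -0.06 to 0.09. In compound against control mice the DEG count was 0 to 1 when single mice were left out (1 without control mouse 1 or compound mouse 1 or 3). In the nuclei the members' median log2 difference of 0.02 moved to 0.13 with the replicate block and ran from -0.12 to 0.13 when single mice were left out (controls 1 and 4 and Hdac1 cKO mice 2 and 4 moved it most). The causes were not tested. The counts of called members in the other comparisons did not move under any setting run. The 3 correlations with Hspa5 at an unadjusted p under 0.05 became 2 to 4 as single mice were left out. Pdia6 also came under 0.05 with quantile normalization and without subtraction of group means. A change of sign was not counted where the difference was smaller than its standard error. Mice with the same number did not vary together (correlations of their deviations from -0.113 to 0.0778), and the numbers are not known to pair animals. Depth is known only in relative terms, and members at a few FPKM, such as Hyou1 and Pdia4 in the hippocampus, are measured with fewer fragments than Hspa5.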
